A study of Mus musculus with 5 samples.

Results

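Hemogenic endothelium (HE) and macrophages (MAC) were set against each other by DNaseI-seq, which lists DNaseI hypersensitive sites (DHSs), places in chromatin where DNase I cuts most readily. Their lists are the longest of the 5 in the series, with 33305 sites in HE and 37456 in MAC. Each site was reduced to 500 bp around its middle, and windows that overlapped by at least 25% of that length were joined. This gave 57270 regions, against 68846 when the 5 lists were joined in the same way. Of the 57270, 19816 regions (34.6%) were listed in HE only, 23965 (41.8%) in MAC only and 13489 (23.6%) in both. The shared regions were 40.5% of the HE regions and 36.0% of the MAC regions.

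Both populations were derived in culture from a mouse embryonic stem cell line of strain 129 that carries a GFP reporter of Brachyury (Bry). HE cells were sorted as Bry:GFP+, Tie2+, cKit+ and CD41-, and MAC cells as CD11b+. The remaining lists are those of mesoderm (MES), hemangioblasts (HB) and hematopoietic progenitors (HP), and are used here only to say where else a region was listed. Each stage had 1 list. For MAC, 2 replicates are named together in the label of this single list. No difference between HE and MAC can therefore be set against a spread between replicates, and no test was run. A share is given with its 95% Wilson interval where it matters, which covers counting error only. The lists hold positions without heights or read counts, so their depth cannot be read from them and the study's read totals were not drawn on. A region absent from a list is one at which no site was listed.

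Hemogenic endothelium is the endothelium of the embryo from which the first blood stem and progenitor cells bud, in a change of cell shape and gene activity called the endothelial-to-hematopoietic transition. Its cells carry endothelial receptors and junction proteins together with early blood transcription factors. Macrophages are phagocytes at the far end of the myeloid branch, and their enhancers are known to be bound by PU.1 and C/EBP factors. Promoters shared by most cells tend to stay open through such a change, whereas enhancers are known to be more specific to a cell type.

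The stretches printed here show the kind of sequence by which the classes differed. They are the central 150 bp of regions over 2 kb from a start site, whose nearest gene is in a list of endothelial or macrophage genes. They were chosen after the motif counts were known, as regions holding at least 2 of the 3 motifs TEAD, GATA and SOX in HE, or PU.1, C/EBP and AP-1 in MAC, so their matches are no evidence for those counts. Such stretches were uncommon, at 2 of 151 HE-only regions and 8 of 193 MAC-only regions at these genes, and no stretch held all 3. Of these 10, 6 are shown. All are plus strand of GRCm38 (mm10), 5′ to 3′, with the matches in capitals.
Clec14a, 54.7 kb upstream, chr12:58323846-58323995, HE only, TEAD and GATA: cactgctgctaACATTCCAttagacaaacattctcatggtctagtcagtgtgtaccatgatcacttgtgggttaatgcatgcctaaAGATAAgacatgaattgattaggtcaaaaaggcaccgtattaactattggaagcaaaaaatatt
Meis1, 71.3 kb downstream in an intron, chr11:18947636-18947785, HE only, TEAD and GATA: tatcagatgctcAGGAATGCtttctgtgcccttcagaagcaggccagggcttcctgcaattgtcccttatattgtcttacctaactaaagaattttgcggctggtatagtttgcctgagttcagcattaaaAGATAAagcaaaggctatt
Itgax, 4.26 kb downstream at a coding exon, chr7:128133735-128133884, MAC only, PU.1 and C/EBP: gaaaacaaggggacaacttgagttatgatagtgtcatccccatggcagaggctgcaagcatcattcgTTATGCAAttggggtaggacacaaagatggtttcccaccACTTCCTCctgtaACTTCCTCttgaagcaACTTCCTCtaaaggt
Itgam, 26.6 kb downstream in an intron, chr7:128089185-128089334, MAC only, PU.1 and C/EBP: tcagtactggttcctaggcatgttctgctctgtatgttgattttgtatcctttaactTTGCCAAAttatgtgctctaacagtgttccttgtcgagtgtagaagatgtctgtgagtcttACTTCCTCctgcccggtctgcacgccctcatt
Egr2, 45.4 kb upstream, chr10:67490006-67490155, MAC only, PU.1 and C/EBP sharing 1 base: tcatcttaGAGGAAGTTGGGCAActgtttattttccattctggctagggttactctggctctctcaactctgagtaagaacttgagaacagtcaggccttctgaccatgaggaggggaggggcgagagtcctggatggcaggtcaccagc
Fcgr3, 8.48 kb downstream, outside genes, chr1:171050840-171050989, MAC only, C/EBP and AP-1: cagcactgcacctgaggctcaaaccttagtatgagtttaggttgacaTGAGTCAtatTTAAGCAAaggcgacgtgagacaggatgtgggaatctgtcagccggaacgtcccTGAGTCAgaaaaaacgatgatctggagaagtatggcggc
The Itgax stretch holds 3 PU.1 matches and 1 C/EBP match, and the Fcgr3 stretch has 2 AP-1 matches on either side of its C/EBP match. The 6 regions were listed in no other stage of the series. Clec14a is an endothelial surface lectin, Meis1 a homeobox factor of endothelium and blood progenitors, Itgax and Itgam the integrin chains CD11c and CD11b, Egr2 a zinc-finger factor of macrophages and Fcgr3 an antibody receptor.

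The classes lay at different distances from genes. A region was called promoter when its centre was within 2 kb of the nearest RefSeq transcription start site of a protein-coding gene, proximal up to 20 kb and distal beyond. Shared regions were promoters in 57.4% of cases (56.6 to 58.2), HE-only regions in 23.5% (22.9 to 24.1) and MAC-only regions in 11.0% (10.6 to 11.4), where 3.25% of the genome lies so near to a start site. With whole deposited intervals in place of windows, the promoter shares fell to 19.3% of HE-only and 5.67% of MAC-only regions. Part of the promoter regions called single-list here thus came from sites that overlap a site of the other list. The median distance to a start site was 318 bp for shared, 17582 bp for HE-only and 22736 bp for MAC-only regions. Read the other way, 51.5% of promoter regions were shared, but only 15.5% of proximal and 12.3% of distal regions. Introns held 43.5% of HE-only, 47.6% of MAC-only and 27.6% of shared regions.

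**Figure D1:**
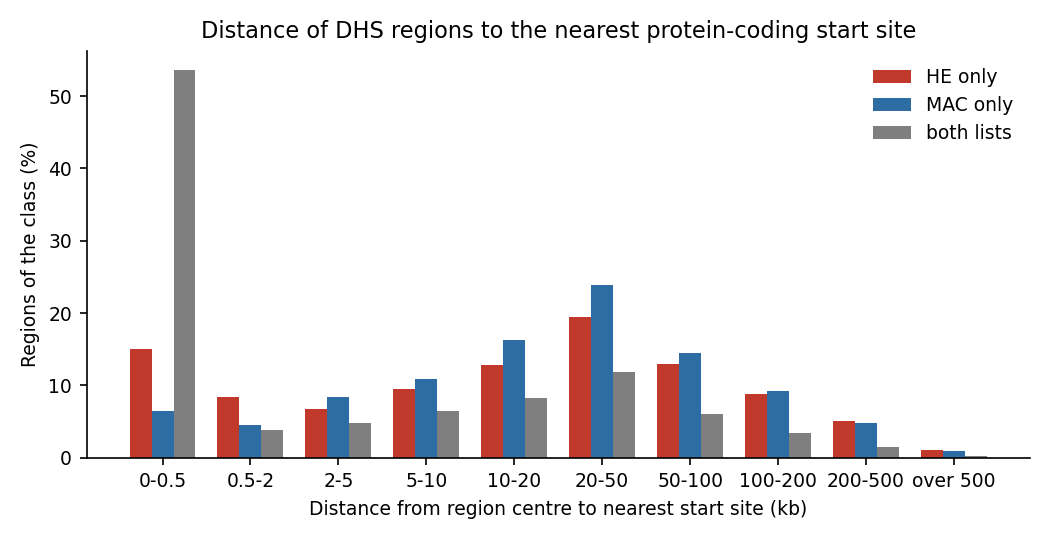
Share of the regions of each class (y axis, percent) by distance from the region centre to the nearest protein-coding start site (x axis, kb, unequal bins), for regions in HE only (red), MAC only (blue) and both lists (gray). Shared regions pile up in the first bin, and the single-list classes have their highest bar at 20 to 50 kb.

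Promoter regions of both single-list classes were often listed in other stages too. Of HE-only promoter regions, 48.5% were also listed in HB and 43.1% in MES, and 26.9% in HP. Among distal HE-only regions these shares were 20.5%, 12.3% and 16.8%. Of MAC-only promoter regions, 39.4% were listed in HB, 40.4% in MES and 39.6% in HP. All 3 of these stages listed 32.0% of MAC-only and 19.0% of HE-only promoter regions. Distal MAC-only regions were mostly private to the macrophage list. Listed in none of MES, HB and HP were 94.8% (94.4 to 95.2) of the distal and 52.6% (50.7 to 54.5) of the promoter MAC-only regions. For HE-only regions these shares were 67.8% (66.8 to 68.7) and 41.1% (39.7 to 42.6). Shared promoter regions were listed in all 3 other stages in 89.4% of cases, and shared distal regions in 20.3%. HE has stages on both sides of it in this series and MAC only before it, so these shares are not like for like.

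Composition followed position. CpG-rich regions, with a GC share of at least 0.5 and an observed to expected CpG ratio of at least 0.6 in the central 500 bp, made up 84.1% of shared, 54.1% of HE-only and 42.6% of MAC-only promoter regions. Beyond 2 kb of a start site they were 9.36%, 4.15% and 0.666%, beside 0.716% of windows tiled over the genome. HE-only regions there had a median GC of 49.4% and MAC-only regions 46.6%, so HE-only regions beyond 2 kb were richer in G and C. MAC-only regions beyond 2 kb, 21320 against 15165 HE-only ones, also lay closer together, and the part of their larger number in this was not tested. Of the MAC-only regions, 41.2% (40.6 to 41.9) had another MAC-only region within 10 kb, whereas 27.8% (27.1 to 28.5) of HE-only regions had another of their own class so near.

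Site width differed between the lists and touches every count given here. HE sites had a median width of 1200 bp and MAC sites of 600 bp, and 83.1% of HE but 30.8% of MAC sites reached 800 bp. In regions with 1 site of each list the HE site was the wider in 93.9% of 13487 cases, with medians of 1500 and 800 bp. At 9.54% of HE-only regions the deposited HE interval overlapped a MAC interval whose middle lay too far off for the windows to join, and the same held for 9.13% of MAC-only regions. Near the limit for joining, 250 pairs of HE and MAC windows overlapped by up to 25 bp too little and stayed apart, while 249 pairs were joined with less than 25 bp to spare. When only sites of at least 800 bp were kept in both lists, HE-only regions numbered 20745, MAC-only regions 4577 and shared regions 6947, so with the same width limit in both lists the order of the single-list classes turned. The part of calling and depth in these widths was not tested.

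At gene promoters the difference ran the other way. A deposited site within 1 kb of a start site was listed in HE only for 13.9% of 21000 protein-coding genes, in MAC only for 2.14% and in both for 46.4%. Regions around each gene were then counted, with each region given to its nearest gene within 100 kb. A gene was called HE-weighted or MAC-weighted when it had at least 3 single-list regions and at least 3 times as many of that list as of the other, which held for 4.11% and 7.24% of genes. These were 863 and 1521 genes, and with sites of at least 800 bp the order turned, to 1720 and 67. Of the 449 genes with a MAC-only promoter site, 36.3% (32.0 to 40.8) were MAC-weighted and 3 were HE-weighted. Of the 2917 genes with an HE-only promoter site, 15.5% (14.2 to 16.8) were HE-weighted and 4.49% (3.80 to 5.30) MAC-weighted. Regions near a promoter enter both measures. Leaving out regions within 2 kb of a start site, MAC-only promoter genes had on average 1.66 MAC-only and 0.463 HE-only regions and HE-only promoter genes 0.955 and 0.995, where genes with promoter sites in both lists had 1.12 MAC-only and 0.686 HE-only regions.

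Most endothelial surface genes were listed at their promoters in HE and not in MAC. Of 22 endothelial surface and junction genes, 16 had an HE-only promoter site, none a MAC-only one and 3 a site in both lists, with 3 (Esam, Emcn and Mmrn2) in neither, and 9 were HE-weighted and none MAC-weighted. Over the list there were 87 HE-only and 38 MAC-only regions. Ptprb, the vascular endothelial tyrosine phosphatase, had 12 HE-only regions and no MAC-only region. Kdr, the VEGF receptor Flk1, had 12 HE-only, 4 MAC-only and 5 shared regions and a promoter site in both lists, as did Flt4 and Eng. Egfl7, a secreted vascular protein, had 9 HE-only and 3 MAC-only regions. S1pr1, a sphingosine phosphate receptor also used by leukocytes, stood apart with 5 HE-only and 10 MAC-only regions around an HE-only promoter site. Vwf and Icam2 likewise had more MAC-only than HE-only regions, at 3 against 2 and 4 against 3.

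Transcription factors of endothelium were divided. Of 22, 11 had an HE-only promoter site and 10 a site in both lists, and 6 were HE-weighted and 1 MAC-weighted. Mecom had 5 HE-only and 1 MAC-only regions, Meis1 10 and 2, Meis2 8 and 1, and Nr2f2, the venous factor COUP-TFII, 6 and 0. Sox17, an arterial and hemogenic factor, had 3 HE-only regions and no other. Elk3 had 8 HE-only and 10 MAC-only regions and Erg 6 and 4, although neither had a MAC site at its promoter. Lmo2, the bridging factor of early blood complexes, was MAC-weighted with 2 HE-only and 6 MAC-only regions and a promoter site in both. Many of these factors thus had separate regions in each list around 1 gene.

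Hippo pathway genes, which act through TEAD factors and their coactivators YAP and TAZ, were among the most one-sided. Of 14, 11 had an HE-only and none a MAC-only promoter site, and all regions over the list came to 57 HE-only and 13 MAC-only. Tead1 had 11 HE-only regions and Tead4 had 7, each with no MAC-only region. Ankrd1, a known target of YAP, had 6 and 0. Ccn2, another known target, was an exception, with 2 HE-only and 4 MAC-only regions and an HE-only promoter site. Notch pathway genes had 29 HE-only and 27 MAC-only regions over 14 genes, although 6 had an HE-only promoter site and none a MAC-only one. When sites under 800 bp were dropped, 33 HE-only and 5 MAC-only regions were left at Notch genes. Over all regions the same limit took HE-only from 19816 to 20745 and MAC-only from 23965 to 4577. Dll4, the arterial ligand, had 3 HE-only and no MAC-only regions. The receptor Notch2 had 0 HE-only and 8 MAC-only regions and the nuclear effector Rbpj had 0 and 6, so these members were MAC-weighted.

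Macrophage genes gave the mirror image. Of 26 macrophage surface and effector genes, 20 had a MAC-only promoter site, none an HE-only one and 4 a site in both, and 15 were MAC-weighted and none HE-weighted. The list held 21 HE-only and 110 MAC-only regions. Msr1, the class A scavenger receptor, had 9 MAC-only regions, and Marco, a related receptor, had 8, both without an HE-only region. Itgam, the CD11b by which the cells were sorted, and Itgax had 5 MAC-only regions each and no HE-only one. Ptprc, the pan-leukocyte phosphatase CD45, had 6 and 0. Laptm5 was more even, with 4 HE-only and 5 MAC-only regions, and Csf2rb, a cytokine receptor subunit, had 2 HE-only and 1 MAC-only. Cd68, a lysosomal marker of macrophages, had a single region, shared by both lists, and Sirpa, Cd14 and Csf2ra also had promoter sites in both.

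Myeloid transcription factors differed from these targets in where the difference lay. Promoter sites were in both lists for 17 of 22 and in MAC only for 1, Irf5, yet 11 were MAC-weighted and none HE-weighted, with 31 HE-only and 116 MAC-only regions over the list. Cebpb, which encodes C/EBPβ, had 12 MAC-only and 1 HE-only regions and no site within 1 kb of its start site. Irf8 had 14 MAC-only and 5 HE-only regions, Mitf 9 and 5, and Pparg, Atf3 and Bhlhe40 had 8 MAC-only regions each beside 1, 0 and 3 HE-only ones. Nr1h3, the oxysterol receptor LXRα, had an HE-only promoter site, and Klf4 had 6 HE-only and 4 MAC-only regions.

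Lysosome genes also shared most promoters, and inflammatory genes did so less. Of 20 lysosome and phagocytosis genes, 17 had promoter sites in both lists, 3 in MAC only (Ctss, Gpnmb and Atp6v0d2) and 9 were MAC-weighted, with 19 HE-only and 70 MAC-only regions. Lgmn, an asparaginyl endopeptidase of lysosomes, had 2 HE-only and 10 MAC-only regions, and Tfeb, the master regulator of lysosome genes, 2 and 8. Of 26 pattern recognition and inflammatory genes, 10 had a MAC-only promoter site, 9 a site in both and 3 an HE-only site (Tlr7, Nod1 and Nfkb1), and 17 were MAC-weighted, none HE-weighted. Tlr4, the receptor of bacterial lipopolysaccharide, had 1 HE-only and 10 MAC-only regions, and Tnfaip3, which damps NF-κB signaling, 1 and 9. By contrast, all 14 genes of DNA replication and cell division had promoter sites of any width in both lists by the 1 kb rule. With a reach of 100 bp, or with the middle of the site within 1 kb, 13 of the 14 did. The list held 4 HE-only and 11 MAC-only regions.

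These lists were counted again with sites of at least 800 bp only, an alternative added after the data were seen. Macrophage surface genes still had more MAC-only than HE-only regions, at 33 against 16, and 7 MAC-only and no HE-only promoter sites. Inflammatory genes had 32 against 22, but their single-list promoter sites turned to 5 HE-only and 4 MAC-only. At myeloid transcription factors the order turned, to 38 HE-only and 32 MAC-only regions, as it did at lysosome genes with 23 and 16, whose single-list promoter sites became 3 HE-only and 1 MAC-only. It also turned at replication and cell division genes, from 4 HE-only and 11 MAC-only regions to 8 and 2, where promoter sites in both lists fell to 8 of 14 genes with the other 6 in HE only, and at neutrophil genes, from 3 and 10 to 3 and 2. Endothelial surface genes had 90 HE-only and 7 MAC-only regions, endothelial transcription factors 105 and 13, and Hippo genes 56 and 2. Over all regions the same limit left 20745 HE-only and 4577 MAC-only.

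**Figure D2:**
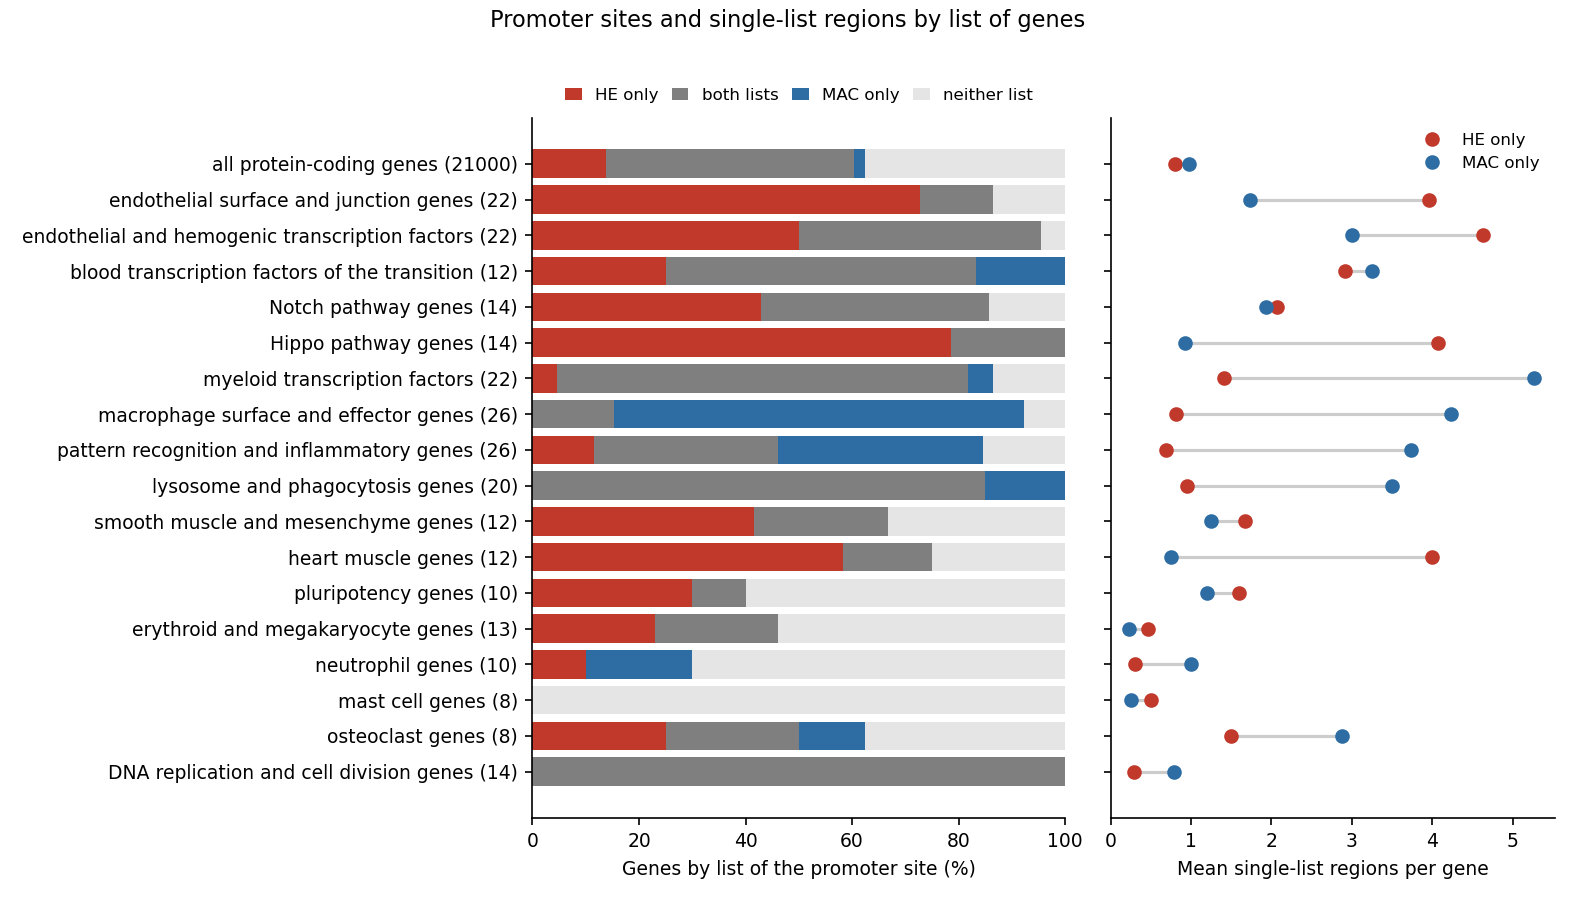
Left, the genes of each list (number of genes in brackets) by the list of their promoter site, in percent, in HE only (red), both (gray), MAC only (blue) or neither (light gray). Right, the mean number of HE-only (red) and MAC-only (blue) regions per gene, each region given to its nearest gene within 100 kb, with a line joining the pair. Endothelial surface and Hippo genes are largely red in the left panel and macrophage surface genes largely blue, and myeloid transcription factors and lysosome genes are largely gray there but have more MAC-only regions in the right panel.

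Genes of other cell types were looked at in the same way. Of 12 heart muscle genes, 7 had an HE-only promoter site and none a MAC-only one, 8 were HE-weighted, and the list held 48 HE-only and 9 MAC-only regions, a larger share of HE-only regions than either endothelial list, with 87 and 38 at surface genes and 102 and 66 at transcription factors. Hand2 had 10 HE-only regions, Gata4 had 7, Hand1 and Tbx5 had 6 each, and the muscle gene Tnnt2 had 3, while Myh6 and Actc1 had none in either list and Mef2c ran the other way, with 3 HE-only and 5 MAC-only regions. Of 12 smooth muscle and mesenchyme genes, 5 had an HE-only promoter site, 4 were HE-weighted and 3 MAC-weighted, with 20 HE-only and 15 MAC-only regions. Col1a2 had 5 HE-only and no MAC-only regions, whereas Col3a1 had 0 and 3, and Acta2 and Postn 1 and 3 each. Of 10 pluripotency genes, 3 had an HE-only promoter site, and the list held 16 HE-only and 12 MAC-only regions. Esrrb had 6 and Sox2 had 4 HE-only regions with no MAC-only one, Dppa3 had 5 and Zfp42 had 2 MAC-only regions with no HE-only one, and Pou5f1 had no region. All 13 erythroid and megakaryocyte genes had fewer than 3 single-list regions, so none could be called weighted. They held 6 HE-only and 3 MAC-only regions, with promoter sites in HE only for 3, in both lists for 3 and in neither for 7. Among 10 neutrophil genes 2 had a MAC-only promoter site (Camp and S100a8) and 1 an HE-only site (Mpo, with 2 HE-only and 2 MAC-only regions). All 8 mast cell genes lacked a promoter site. Whether other cells in the sorted HE population gave sites of these lists was not tested.

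Without regard to lists, the genes with most HE-only regions were Rgs3 with 18, Dlc1 and Smad7 with 17, Zfp423 with 15, Bcor, Frmd4a and Rbpms with 13, and Dab2ip, Ets1 and Irs2 with 12. Ties were cut by gene symbol, which left out other genes with 12, among them Kdr, Ptprb and Tmcc3. Smad7, an inhibitor of TGF-β and BMP signaling, had 1 MAC-only region and Dlc1 had 2, whereas Irs2, an adaptor of insulin receptors, had 11. The genes with most MAC-only regions were Lpp with 22, Runx1 with 19, Trib1 with 18, Sgms1 with 17, Elmo1 and Rbm47 with 16, and Cmip, Gas7, Tns3 and Zfp36l2 with 15. Trib1, a pseudokinase that limits C/EBPα, had 4 HE-only regions, Elmo1, which drives engulfment of dying cells, 6, and Rbm47, an RNA-binding protein, 1. Of these 20 genes, 16 had promoter sites in both lists.

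Some genes were rich in regions of both classes that did not coincide. The 10 with the highest smaller count were Irs2 (12 HE-only, 11 MAC-only), Filip1l (10, 13), Tmcc3 (12, 10), Frmd4b (10, 10), Gas7 (9, 15), Frmd4a (13, 9), Dusp4 (9, 12), Tle3 (9, 12), Med13l (9, 11) and Septin9 (11, 9). Shared regions at these genes numbered from 0 at Filip1l to 7 at Septin9. Over all genes the mean was 0.803 HE-only and 0.970 MAC-only regions, and the median was 0 for each. Long genes and gene-poor surroundings collect more regions, and their part in these ranks was not tested.

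At 9 loci, taken from 30 kb upstream of the first start site to 10 kb past the gene, each region was followed in turn. At Tek, the angiopoietin receptor Tie2 by which HE cells were sorted, 5 regions were HE-only and 1 MAC-only. The HE-only regions lay 23.7, 18.7 and 13.3 kb upstream, at the start site (chr4:94739308-94739807) and 7.17 kb into the gene, and the MAC-only region 29.5 kb into it. The start-site region was held by a site of 1700 bp and the intronic MAC site was 600 bp wide. At Cdh5, VE-cadherin, HE-only regions lay 5.50 kb upstream and 0.399 and 1.90 kb downstream of the start site, while regions 2.10 kb upstream and 9.40 kb downstream were shared. Both shared regions of Cdh5 were also listed in HP. The 3 MAC-only regions of the Cdh5 locus lay 20.2, 28.3 and 44.9 kb downstream. The last of them lay nearer to the start of Bean1 and was also listed in MES and HB. Sox17 had its 2 regions at 0.613 and 4.46 kb, both HE-only.

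At Itgam all 7 regions were MAC-only, from 13.7 kb upstream to 59.1 kb downstream, where the last 2 lay nearer to the start of Itgax. At Csf1r, the receptor of the macrophage growth factor CSF1, MAC-only regions lay 18.4, 14.6 and 6.40 kb upstream, at the start site and 2.90, 15.0 and 19.1 kb downstream, and a region at 22.0 kb was shared. The single HE-only region of Csf1r, 2.36 kb downstream in an intron, and the MAC-only one at 2.90 kb came from sites of 1300 and 1400 bp that overlap each other, so that part of the intron was listed in both stages.

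Irf8 had 13 regions, of which 9 were MAC-only, 2 HE-only and 2 shared. Its start site region was listed in all 5 stages. MAC-only regions lay 27, 24.9, 20.4 and 16.3 kb upstream, where the widest site of the locus (1500 bp) was the one at 20.4 kb, and a further 5 downstream. The HE-only regions were 10.8 kb upstream and 15.9 kb downstream, with sites of 1300 bp each. Spi1, which encodes PU.1, had the most shared regions of the 9 loci, 5 of 12, of which 2 lay at the start sites of its neighbors Psmc3 and Slc39a13. RefSeq places its curated start sites 14.3 kb apart. The shared region at the downstream start site (chr2:91096420-91096974) and the one 13.6 kb upstream of it (chr2:91082870-91083424), where the known upstream regulatory element of Spi1 lies, were both listed in HP too and in neither MES nor HB. Around the latter, MAC-only regions with sites of 200 to 400 bp were 15.4, 12.2 and 10.2 kb upstream of the downstream start.

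Runx1, the factor without which the endothelial-to-hematopoietic transition does not take place, had 20 regions, 14 MAC-only, 4 HE-only and 2 shared. Its distal start site was held by a MAC-only site of 800 bp and was listed in no other stage. Its proximal start site, 129 kb further down, had an HE site of 2500 bp and a MAC site of 1000 bp that overlap but whose middles fell in separate regions, with a second MAC site of 100 bp within the same HE site, and MES and HP were listed there as well. A shared region 24.3 kb below the distal start, in an intron, where a hematopoietic enhancer of Runx1 is known, was also listed in HP. Its central 150 bp on GRCm38, plus strand, hold an E-box and a MAF match:
Runx1, chr16:92801713-92801862, both lists: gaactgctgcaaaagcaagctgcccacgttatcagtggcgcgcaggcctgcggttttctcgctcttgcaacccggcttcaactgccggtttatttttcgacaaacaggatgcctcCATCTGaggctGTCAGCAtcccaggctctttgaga
A further HE-only and MAC-only pair at 110 and 111 kb came from sites that overlap each other. The other MAC-only regions of Runx1 lay in its long introns, apart from 1 at 26.3 kb upstream of the distal start site.

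Fli1, an ETS factor of endothelium and of blood, had 7 HE-only and 8 MAC-only regions and no shared one. HE-only regions lay 24.1, 14.8 and 8.35 kb upstream, at the start site, and 11.4, 15.5 and 21.7 kb downstream. MAC-only regions lay 1.60 kb downstream of the start site and then from 24.7 to 66.3 kb downstream. The HE site at the start was 2100 bp wide and the MAC site at 1.60 kb was 1300 bp wide. Their intervals met end to end without overlap, and the promoter of Fli1 counted as listed in both stages. Each upstream region of Fli1 was thus HE-only, and each region more than 21.7 kb into the gene MAC-only.

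**Figure D3:**
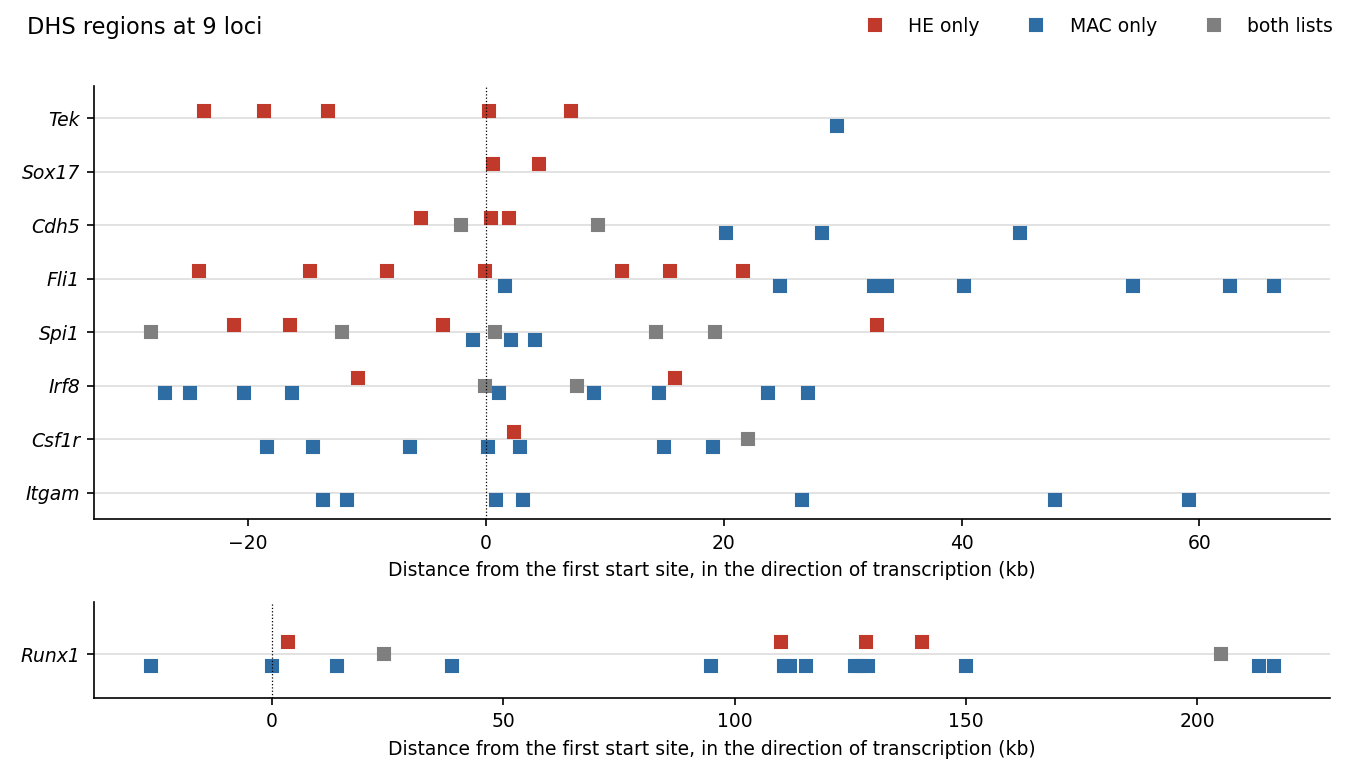
Regions at 9 loci by distance from the first start site in the direction of transcription (x axis, kb), 1 row per gene, with Runx1 on an axis of its own. Squares are regions in HE only (red, set slightly up), MAC only (blue, set slightly down) and both lists (gray). Fli1 has red squares alone upstream, blue ones alone farthest downstream and a blue one among the red at 1.60 kb, Itgam is all blue, and Spi1 has 5 gray squares.

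To ask which sequences went with the classes, 28 consensus motifs were counted on both strands of the central 500 bp of regions beyond 2 kb of a start site, 15165 in HE only, 21320 in MAC only and 5748 shared. The motif most tilted toward HE, except with sites of at least 800 bp, was that of TEAD, the DNA-binding partner of YAP, searched as ACATTCCA, ACATTCCT, GCATTCCA and GCATTCCT. It was in 17.2% of HE-only, 7.67% of MAC-only and 10.1% of shared regions, and in 11.4% of all regions counted, a log2 ratio of MAC only over HE only of -1.16 (95% interval -1.25 to -1.08). GATA, searched as AGATAA, was in 34.4% of HE-only and 20.9% of MAC-only regions (26.1% of all, log2 -0.72, -0.77 to -0.67). SOX, searched as CATTGTT, was in 11.8% and 7.57% (9.05% of all, log2 -0.64, -0.74 to -0.55). Read backward but not complemented, these letters gave log2 ratios of -0.02, 0.37 and 0.25. Reversing keeps the letters but changes which stand side by side, and the part of sequence composition in the tilts was not tested.

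The motifs tilted most toward MAC were those of PU.1, C/EBP and their composites. PU.1, searched as GAGGAAGT, was in 14.2% of MAC-only, 6.09% of HE-only and 11.0% of shared regions (10.9% of all, log2 1.22, 1.12 to 1.33). C/EBP, searched as TTGCNNAA, was in 30% of MAC-only, 17.2% of HE-only and 20.5% of shared regions (24.1% of all, log2 0.80, 0.74 to 0.86). The composite C/EBP and ATF element TGATGCAA was rare, at 2.10% of all regions, with 2.86% of MAC-only against 1.16% of HE-only regions (log2 1.30, 1.06 to 1.54). The composite of an ETS and an IRF site, known as EICE, was in 9.58% of MAC-only and 5.30% of HE-only regions (7.64% of all), and it can overlap a PU.1 match. Reversed letters of PU.1, C/EBP and EICE gave log2 ratios of -0.01, -0.13 and -0.09. Those of the C/EBP and ATF composite gave 0.45 (-0.23 to 1.13), in the same direction as the motif.

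AP-1 and RUNX motifs leaned toward MAC less strongly, with log2 ratios of 0.55 and 0.35. Reversed letters gave 0.32 (0.23 to 0.41) for AP-1, in the same direction, and 0.04 for RUNX, and in regions with a GC share of 0.4 to 0.5 the ratios were 0.34 and 0.28. AP-1, searched as TGACTCA and TGAGTCA, was in 26.6% of MAC-only and 18.1% of HE-only regions, and shared regions were highest with 29.0% (23.9% of all). RUNX, searched as TGTGGTC and TGTGGTT, was in 25.5% of MAC-only, 20% of HE-only and 22.1% of shared regions (23.1% of all). MAF, searched as TGCTGAC, was in 14% of MAC-only and 10.4% of HE-only regions (12.5% of all). NF-κB, searched as GGGANTTCC, was more frequent in HE-only regions, at 3.15% against 2.18% (2.67% of all, log2 -0.53, -0.71 to -0.35), and its reversed letters gave -0.35. The rarer MEF2 and OCT motifs had log2 ratios of 0.51 and 0.24, but among regions with a GC share of 0.4 to 0.5 these were 0.03 (-0.55 to 0.60) and 0.07 (-0.17 to 0.31), and at 800 bp their intervals also held 0. The E-boxes CAGCTG and CATCTG differed little, in 33.9% of HE-only against 29.5% of MAC-only and 38.3% against 36.5% (31.8% and 37.1% of all). The letters CCCGCCC of KLF and SP factors, which read the same reversed, were in 8.02% of HE-only and 4.41% of MAC-only regions (7.09% of all), and their log2 ratio shrank from -0.86 to -0.13 among regions with a GC share of 0.4 to 0.5 that were not CpG-rich. In that band the ratios of PU.1, C/EBP, TEAD, GATA and SOX were 1.14, 0.70, -1.26, -0.93 and -0.85.

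**Figure D4:**
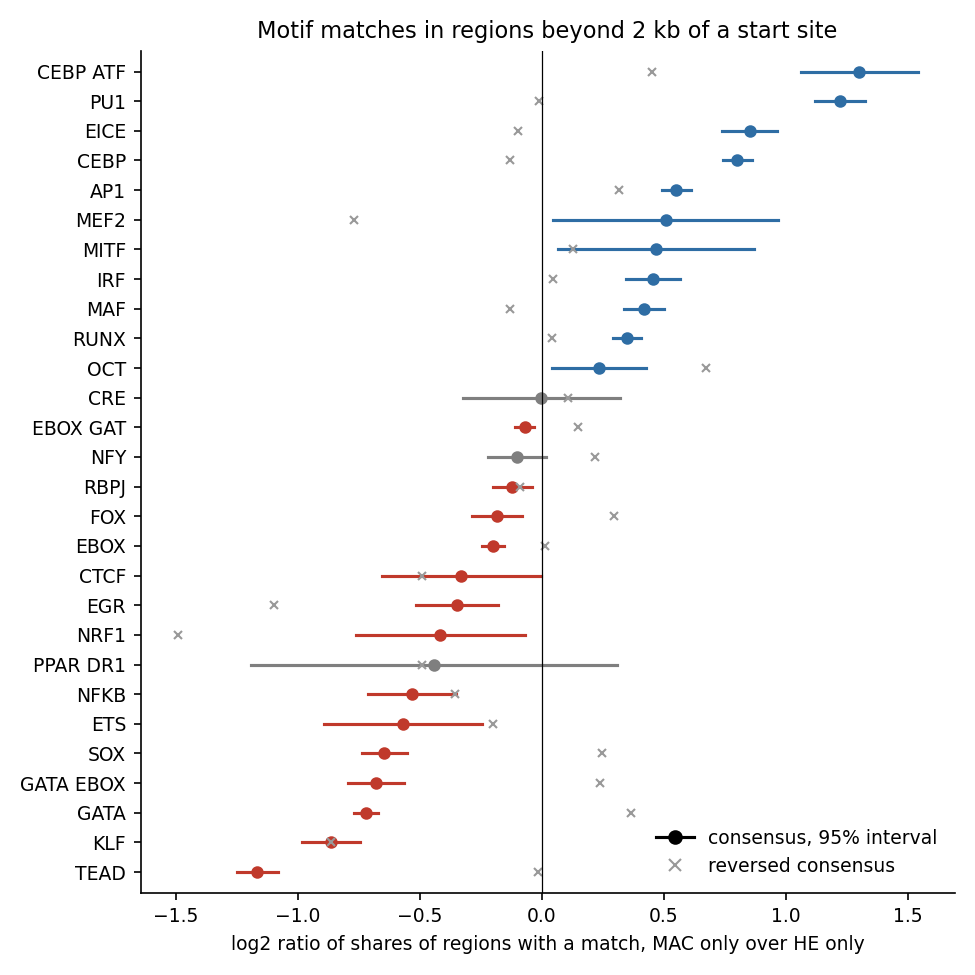
Log2 ratio of the share of MAC-only over that of HE-only regions with a match (x axis), for 28 motifs (y axis) in regions beyond 2 kb of a start site. Points with bars are ratios with 95% intervals for counting error, blue above 0, red below 0 and gray where the interval holds 0, and crosses are the same letters reversed. The C/EBP and ATF composite and PU.1 lie farthest right and TEAD farthest left.

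The density of matches at the middle of regions, against that in the flanks, differed between the classes. PU.1 matches were 8.10 times as dense in the central 200 bp as in the flanks in MAC-only regions, 5.10 times in shared and 2.23 times in HE-only regions. C/EBP matches were 2.23 times as dense in MAC-only regions, and in HE-only regions, at 0.896, the middle was no richer than the flanks. TEAD matches were 2.71 times as dense in HE-only regions and 0.805 times in MAC-only regions, and GATA matches 1.62 and 0.65 times. SOX matches were 1.96 and 0.935 times as dense. AP-1 matches were centered in all classes, at 2.69 in HE-only, 5.35 in MAC-only and 5.80 in shared regions, and RUNX matches at 1.11, 1.65 and 1.31. CTCF, the insulator factor, had few matches, but shared regions held them most often, in 3.08% against 0.936% of HE-only and 0.746% of MAC-only regions, and they were 13.0 times as dense in the middle of shared regions. HE sites are wider, so the middle of an HE region is a looser guide to its most accessible point, and the effect of this on the densities was not tested.

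**Figure D5:**
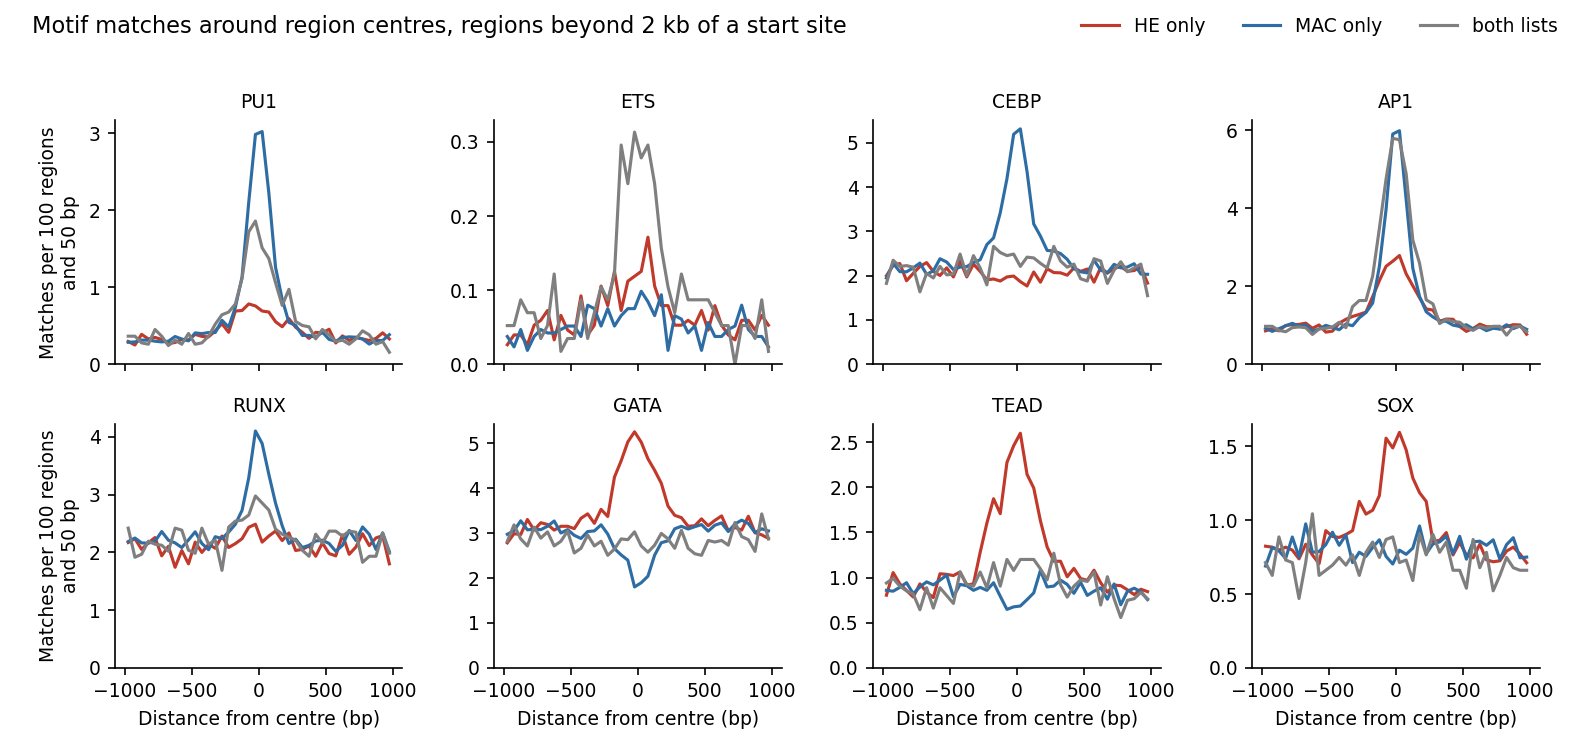
Motif matches per 100 regions and 50 bp (y axis, each panel with its own scale from 0) by distance from the region centre (x axis, bp) for 8 motifs, in HE-only (red), MAC-only (blue) and shared (gray) regions beyond 2 kb of a start site. PU.1 and C/EBP peak in blue, GATA, TEAD and SOX in red, GATA and TEAD dip at the centre in blue, and AP-1 peaks in all 3.

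Pairs of motifs in 1 region followed the single ones. PU.1 and C/EBP stood together in 3.62% (3.38 to 3.88) of MAC-only and 0.910% (0.771 to 1.07) of HE-only regions, and PU.1 and RUNX in 3.59% and 1.19%. GATA and TEAD stood together in 6.16% (5.79 to 6.55) of HE-only and 1.59% (1.43 to 1.76) of MAC-only regions, and SOX and GATA in 4.70% and 1.67%. AP-1 and TEAD, by contrast, were together about as often in shared as in HE-only regions, at 3.29% and 3.34%. A match says only that the letters are present, and no binding was measured in these lists.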

How the data were processed

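DNaseI-seq sites of HE and MAC were compared, 1 list each, with the lists of MES, HB and HP used for cross-reference. The authors trimmed reads (CutAdapt), mapped them to mm10 (Bowtie), discarded those without a unique place and those that Picard marked as duplicates, and called sites from the rest in 100 bp bins (DFilter). Versions were not stated, and the processing notes of the submitters also name HOMER with no role. The deposited files give only where each site starts and ends, with no score, so depth cannot be read from them, aligned read totals were not used, and sites could be made stricter only by width. Wide bins and wide sites blur the position of a middle and hence whether windows join.

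Regions, classes, distances, counts per gene and motif counts were computed in Python 3.11.15 with NumPy 2.4.6 and plotted with matplotlib 3.10.9, after the joining and the motif search were tested on simulated data. GRCm38.p6 and RefSeq gave sequence and annotation, with 25999 start sites of curated mRNAs for 21000 protein-coding genes. Shares have 95% Wilson intervals and ratios of shares 95% Katz intervals, both for counting error only. No test was run with 1 list per stage. Regions with sites of HE or MAC alone were called single-list. Genes named in the text were the 10 genes with most HE-only, most MAC-only and most of both kinds of region within 100 kb, members of 17 gene lists, and 9 loci, with a further locus of the rule not reported here. Single members whose counts run against their list, and the 6 printed stretches with motif pairs, were named after their values were seen. The gene lists, motifs and the comparison itself were chosen with earlier results of these data known. Of 8 stretches planned around start sites only that of Runx1 is printed. Alternatives varied the joining rule, the width of sites, the start sites, the reach around genes and the motif window.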

Additional observations from a re-analysis of the deposited data

How the results depend on the processing

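The files do not give depth and the study's read totals were not used, each stage has 1 list, and width was the only property by which sites could be made stricter, so the counts of regions are tied to how sites were called. Dropping sites narrower than the median of their list left 9867 HE-only, 10988 MAC-only and 8120 shared regions. Keeping sites of at least 800 bp in both lists left 4577 MAC-only and 6947 shared regions. Other joining rules kept each of the 3 counts within 1.5 times, as did keeping the 33192 widest MAC sites, a list about as long as that of HE, which left 20493 HE-only and 20380 MAC-only regions and so turned their order. Promoter shares of HE-only and MAC-only regions were 26.8% and 14.7% with joining at 250 bp, 21.5% and 8.94% with joining at 1 bp, 19.3% and 5.67% with whole deposited intervals, 19.9% and 6.80% with windows of 1000 bp, 40.5% and 14.2% at the median width, 31.8% and 17.1% at 800 bp, 31.9% and 17.9% with start sites of all annotated transcripts, and 20.5% and 7.94% within 1 kb. The share in shared regions was 56.1% with joining at 250 bp, 77.5% at the median width, 74.7% at 800 bp, 59.0% with the widest MAC sites, 63.9% with all start sites and 55.9% within 1 kb. Under each of these settings HE-only regions were at promoters more often than MAC-only ones and less often than shared ones. Genes with HE-only and MAC-only promoter sites numbered 5752 and 128 at 800 bp, and HE-weighted and MAC-weighted genes 1720 and 67, against 426 and 752 within 20 kb and 1528 and 2351 with a 2-fold rule. Among motifs whose log2 ratio had an interval that excluded 0, the sign turned for CTCF in the central 200 bp (0.59), and for NRF1 (0.21) and EGR (0.36) among regions with a GC share of 0.4 to 0.5, and the cause was not tested. Among those whose interval held 0, PPAR DR1 went from -0.44 to 0.44 at 800 bp and CRE from -0.00 to 0.65 in the central 200 bp. With sites of at least 800 bp the ratio of CTCF was -2.78 (-3.87 to -1.69), beyond that of TEAD at -1.09, against -0.33 with all sites. The ratios of PU.1, C/EBP, AP-1, RUNX, TEAD, GATA and SOX kept their sign in the 3 settings tried. No paired analysis was possible because the groups hold 1 list each.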

Other observations

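The X chromosome differed from the autosomes in the mix of classes. Of its 980 regions, 43.7% were HE-only and 28.1% MAC-only, whereas on the autosomes HE-only regions made up 31.7% to 37.0% and MAC-only regions 36.5% to 46.5%. It also held 5.73 regions per Mb, against 17 to 35.9 on the autosomes.

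Osteoclasts are a further fate of cells of the macrophage lineage. Of 8 osteoclast genes, Ctsk, the collagen-cleaving cathepsin K, had a MAC-only promoter site with 4 MAC-only and no HE-only regions, and Dcstamp, a cell fusion protein, had 5 and 0 with no promoter site. Nfatc1, a factor of osteoclasts that also acts in endocardium, had 6 HE-only and 7 MAC-only regions and a promoter site in both lists. Acp5 and Calcr had HE-only promoter sites. The list held 12 HE-only and 23 MAC-only regions, and 11 and 5 with sites of at least 800 bp.

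Repeats flagged in the genome sequence made up on average 14.6% of the bases of MAC-only regions beyond 2 kb of a start site, 11.8% of HE-only and 11.1% of shared ones, where they are 36.4% of the genome.

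The blood transcription factors of the endothelial-to-hematopoietic transition had promoter sites in both lists for 7 of 12 genes, in HE only for 3 and in MAC only for 2, with 35 HE-only and 39 MAC-only regions. With sites of at least 800 bp these became 37 and 10, with 5 HE-only and no MAC-only promoter sites. Gfi1, a repressor active in the transition, had an HE-only promoter site with 5 HE-only and no MAC-only regions, and its relative Gfi1b had a MAC-only promoter site with 1 and 2. Ikzf1, the lymphoid and myeloid factor Ikaros, had a MAC-only promoter site with 1 HE-only and 5 MAC-only regions, and Myb, needed by blood stem cells, an HE-only promoter site with 2 and 0.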
